A study of Mus musculus with 20 samples.

Results

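Metallothioneins and zinc transporters were followed across 20 RNA-seq libraries of primary mouse renal tubular epithelial cells. The set holds 8 of the 55891 genes in the count table, namely the metallothioneins Mt1 and Mt2, the importers Slc39a14, Slc39a8 and Slc39a10, and the exporters Slc30a1, Slc30a4 and Slc30a5. They were chosen by name, and each was found in the table through its mouse Ensembl ID. The cells came from mice of strain B6.129-Ptprz1tm1Nmo, in which the gene of the receptor tyrosine phosphatase Ptprz1 is targeted. There were 4 groups of 5 libraries: KO cells given LPS (bacterial lipopolysaccharide) at 100 ng/mL with IFNγ (interferon gamma) at 10 ng/mL for 24 h, untreated KO cells, and het cells with and without the same stimulus. Het cells carry 1 targeted allele and served as the comparator, so no group was wild type. Every culture was kept in medium with 10% serum, hydrocortisone, insulin, transferrin and selenite. The labels name 10 animals, without their ages, and list animals 5 and 7 under both genotypes.

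Zinc is held at very low free levels in the cytosol. Metallothioneins are small cysteine-rich proteins that bind zinc, copper and cadmium, and their genes are known to respond to zinc through the metal-regulatory transcription factor MTF1 and to glucocorticoids. Slc39 proteins (the ZIP family) bring zinc into the cytosol, and Slc30 proteins (the ZnT family) carry it out, across the plasma membrane or into vesicles and the Golgi. The kidney tubule is a main site of metallothionein-bound cadmium. In inflammation several cell types draw zinc in and raise metallothioneins, with Slc39a14 known in mouse liver as an interleukin-6 target.

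Total counts per library were 12899528 to 20411411. Ptprz1 could not check the genotype labels, since it had 8 counts over the stimulated KO libraries, 7 over the control KO libraries, 9 over the stimulated het libraries and 7 over the control het libraries. Both libraries of animals 8 (KO replicate 4) and 4 (het replicate 5) went against their stimulus labels. Nos2, the inducible nitric oxide synthase gene, was at 0 CPM (a count scaled to the total of its library) in their libraries labelled stimulated and at 200 and 85.3 CPM in those labelled control, and the interferon-induced genes Gbp2 and Tap1 followed the same pattern. In the other 16 libraries Nos2 was at 1223 to 3400 CPM with the stimulus and at most 0.233 CPM without. Stimulus results for the 8 genes, averaged over genotypes, are therefore given for all 20 libraries as labelled and for the 16 libraries without animals 4 and 8, which were set aside by their stimulus genes, after those values were seen. Markers of tubular epithelium summed to 417 to 1950 CPM, while the mature proximal tubule transporter genes Slc34a1, Slc5a2 and Slc22a6 were under 1 CPM in every library. The epithelial sum hides uneven members. Pax8 was at 134 CPM or more in every library, but Krt8 went down to 1.09 CPM and Epcam to 0.155 CPM. Fibroblast markers summed to 99.0 to 19480 CPM. In bulk RNA, fewer cells of a type and less RNA per cell cannot be told apart.

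Per kilobase of transcript (median over 20 libraries), Mt1 stood at 104 and Mt2 at 80.5 CPM per kb, with overlapping ranges. The length was that of the longest protein-coding transcript annotated as principal, or of the longest protein-coding one where none was. The exporters Slc30a5 and Slc30a4 followed at 17.5 and 16.1, and their ranges over the libraries overlapped. Slc39a14 and Slc39a10, at 9.08 and 8.81 CPM per kb, did not separate either. Slc30a1 was at 4.03 and Slc39a8, the lowest of the set, at 1.97 CPM per kb. Over the 10 control libraries Slc30a4 ranged from 73.9 to 93.2 CPM and Slc30a5 from 53.1 to 68.2 CPM, whereas Mt2 ranged from 11.6 to 173 CPM.

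**Figure D1:**
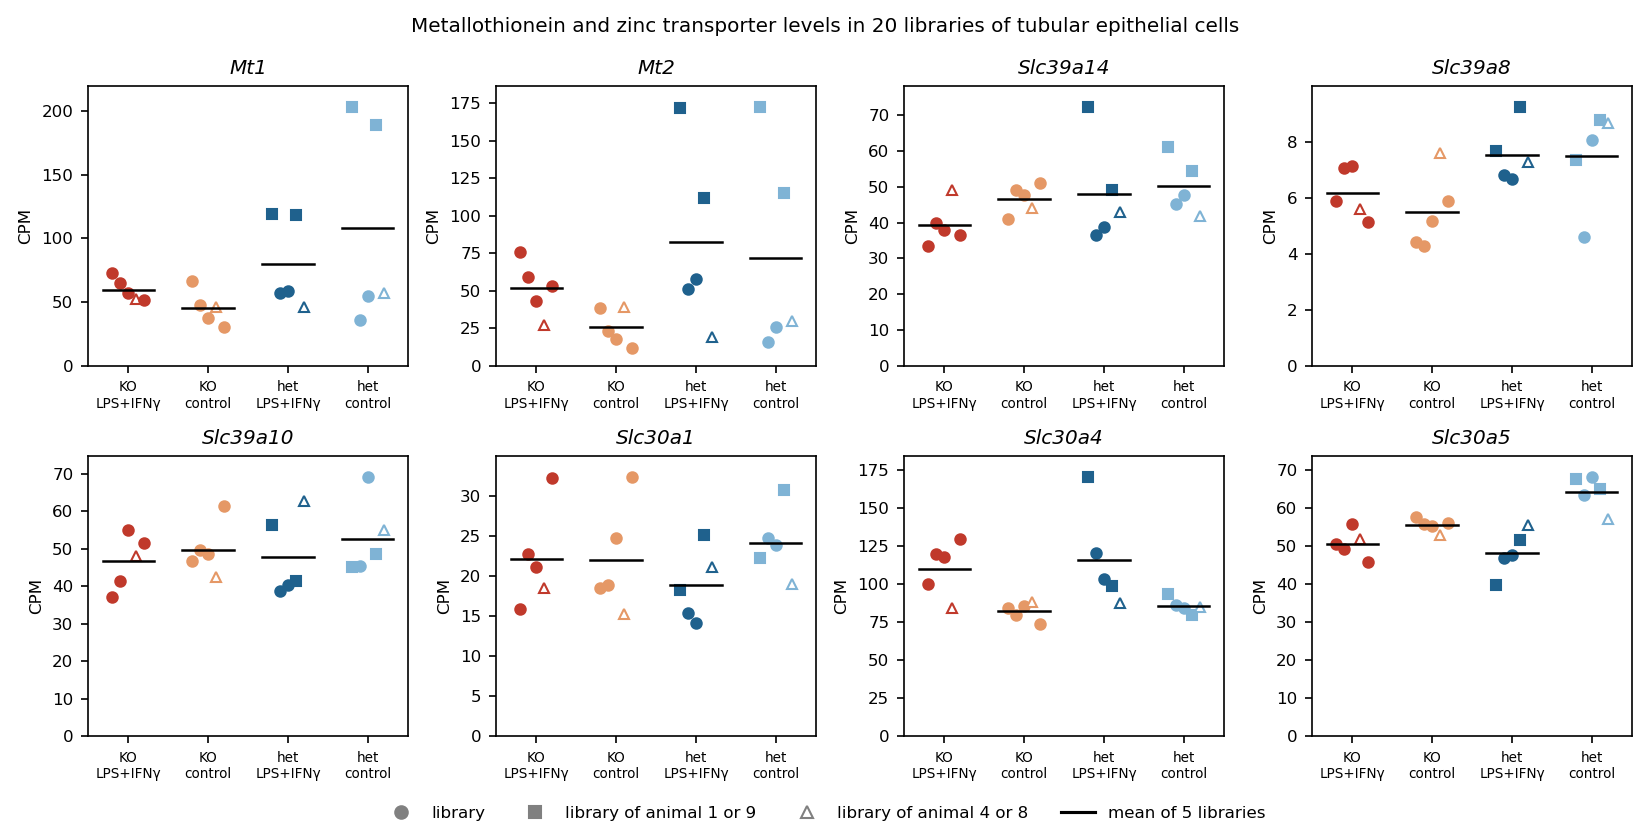
CPM (y axis, each from 0) of the 8 genes in every library, by group (x axis), with bars for the mean of 5 libraries, squares for animals 1 and 9 and open triangles for animals 4 and 8. Slc30a4 is higher and Slc30a5 lower in most stimulated libraries, and the squares stand alone at the top for Mt1 and Mt2.

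The first question was how the stimulus changed these genes. The 8 genes were chosen with earlier results of these data known, so the share of them called is a description only. Averaged over the genotypes, Slc30a4 rose and Slc30a5 fell, while the metallothioneins, the 3 importers and Slc30a1 did not pass the test. That is 2 of 8 genes called, 1 in each direction, where 5.02% of all 14568 genes tested were called, 4.54% higher and 0.481% lower. Of all genes 662 were called higher and 70 lower, and with scaling by library totals alone 471 higher and 143 lower. The median log2 fold change was 0.02 over the 8 genes and -0.01 over all genes tested. Calls rest on edgeR's quasi-likelihood test over all genes, with 0.05 as the limit of the adjusted p (Benjamini-Hochberg). With the animal as a block 0 of 8 genes were called (0% of all genes, with 4446 at an unadjusted p under 0.05), and DESeq2 called both genes (8.49% of all genes). Without the het animals 1 and 9, described below, edgeR called 0% of all genes, with Slc30a4 at 0.41 ± 0.10 (adjusted p = 0.167) and Slc30a5 at -0.18 ± 0.05 (adjusted p = 0.17).

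Slc30a4 encodes ZnT4, which moves zinc into vesicles and is the gene of the lethal milk mutation in mice. In stimulated KO libraries it had 100.1, 119, 118, 84.0 and 129 CPM (replicates 1 to 5), against 84.4, 79.7, 85.7, 88.1 and 73.9 CPM in control KO libraries. Stimulated het libraries had 170.1, 120.1, 103, 98.6 and 87.3 CPM, against 93.2, 86.0, 84.5, 79.5 and 85.0 CPM in control het libraries. The values below 90 CPM on the stimulated side are those of animals 8 and 4, and every other stimulated library lay above all 10 controls. Averaged over genotypes, the log2 fold change was 0.51 ± 0.12 (SE, edgeR's quasi-likelihood test, Benjamini-Hochberg adjusted p = 0.0179), a 1.42-fold difference. Leaving out each of the 20 libraries in turn gave adjusted p from 0.0042 to 0.047, and with the animal as a block the adjusted p was 0.104. In the 16 libraries the stimulated range was 98.6 to 170.1 CPM and the control range 73.9 to 93.2 CPM, without overlap (0.62 ± 0.12, adjusted p = 0.00189). There 2 of 8 genes and 15.0% of all genes were called, 10.1% higher and 4.88% lower. It was higher with the stimulus in all 6 animals there that gave both libraries. The share of all genes whose groups did not overlap, or that kept the same direction in all 6 animals, was not counted. Such separations, here and for the other members, are therefore descriptions of single genes.

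Slc30a5 encodes ZnT5, which loads zinc into the early secretory pathway, where enzymes such as alkaline phosphatase take it up. Its level was 50.6, 49.3, 55.9, 51.9 and 45.9 CPM in stimulated KO libraries, against 57.7, 55.8, 55.4, 53.1 and 56.1 CPM in control KO libraries. In stimulated het libraries it was 39.9, 46.9, 47.6, 51.6 and 55.7 CPM, against 67.7, 63.5, 68.2, 65 and 57.1 CPM in control het libraries. The het groups did not overlap. In KO cells 4 of 5 libraries labelled stimulated were below all controls, but the one at 51.9 CPM is of animal 8. Without animals 4 and 8, 3 of 4 stimulated KO libraries were below all controls, and the KO groups overlapped. Averaged over genotypes, the log2 fold change was -0.20 ± 0.05 (adjusted p = 0.0339), and -0.24 ± 0.06 in the 16 libraries (adjusted p = 0.0128). The stimulated library was the lower one in all 6 animals whose libraries followed their labels, by 0.17 to 0.76 on the log2 scale. These are CPM from library totals. The TMM scaling factors of edgeR, lower in the stimulated library of each of these animals, would make the falls smaller. In animals 4 and 8, whose libraries went against their labels, the one labelled stimulated was lower by 0.037 and 0.034. The call depended on single libraries. It was lost without any 1 of stimulated KO replicates 1 and 5, control KO replicates 1, 2 and 3, stimulated het replicate 4 and control het replicates 1, 2 and 3 (adjusted p = 0.0506 to 0.0667), and with the animal as a block (adjusted p = 0.104).

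Taken by genotype, 0 of 8 genes and 0% of all genes were called in either genotype with 20 libraries, while 1307 genes in KO cells and 1981 in het cells had an unadjusted p under 0.05 and DESeq2 called 115 (0.789%) and 483 (3.32%). Among them DESeq2 called 1 member, Slc30a5 in het cells (adjusted p = 0.00222). In the 16 libraries het cells gave 2 calls among the 8 genes (7.15% of all genes), Slc30a4 at 0.65 ± 0.16 (adjusted p = 0.0246) and Slc30a5 at -0.38 ± 0.08 (adjusted p = 0.0106). KO cells gave 0 (5.76% of all genes), with Slc30a4 at 0.59 ± 0.16 (adjusted p = 0.0501) and Slc30a5 at -0.10 ± 0.08 (adjusted p = 0.666). With the animal as a block in the same libraries, 2 of 8 genes were called in KO cells (13.5% of all genes), Slc30a4 at 0.56 ± 0.15 (adjusted p = 0.0384) and Mt2, and 2 in het cells (18.6%). A difference between genotypes is not shown by these calls and was tested on its own, below.

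**Figure D2:**
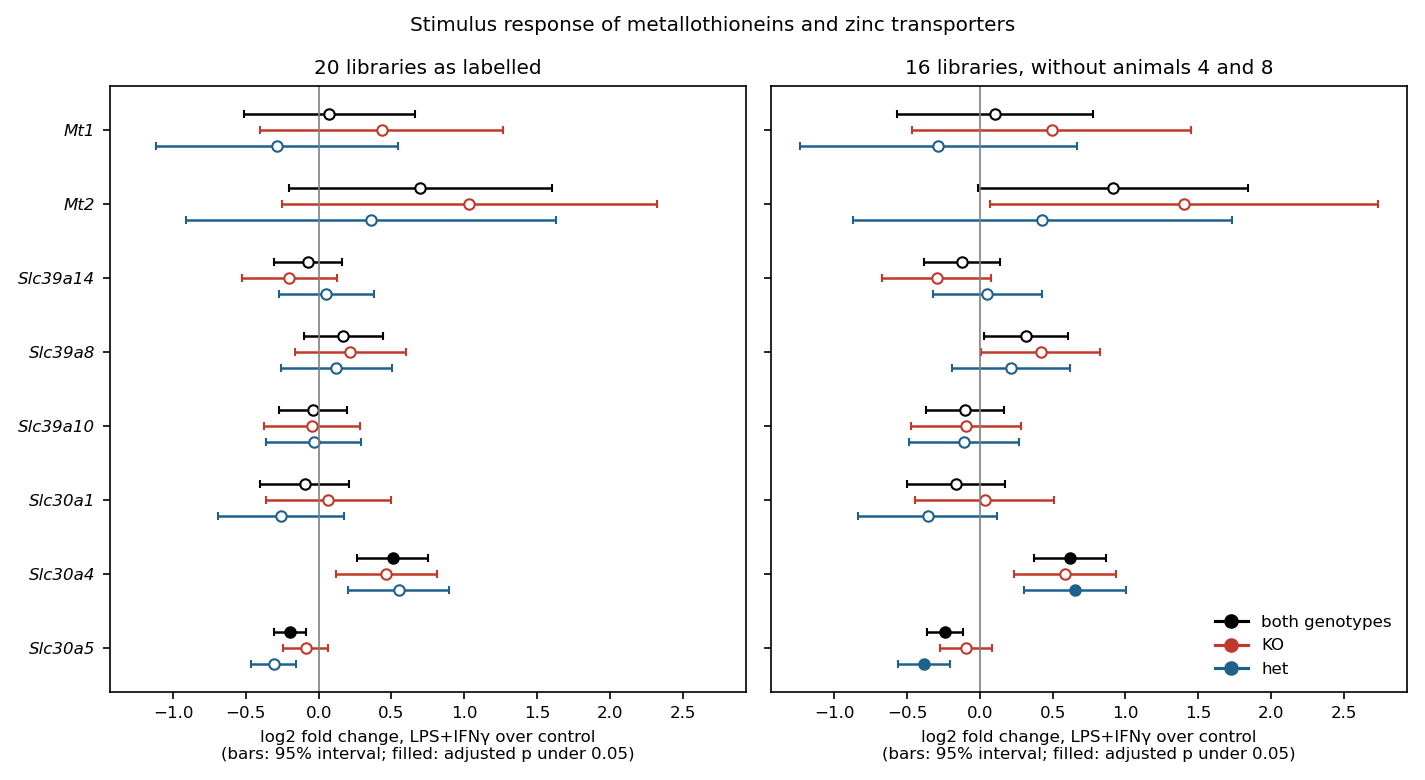
log2 fold change of LPS+IFNγ over control (x axis) for each gene, with 95% intervals, over both genotypes (black), in KO cells (red) and in het cells (blue), in 20 and in 16 libraries; filled points passed the test. The points of Slc30a4 lie above 0 and those of Slc30a5 below 0 in every row, but the Slc30a5 interval in KO cells crosses 0. The metallothionein intervals are the widest.

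The promoters of these exporters (RefSeq, GRCm38.p6, 250 bases before to 50 after the annotated start, 5′ to 3′ on the strand of the gene) are shown because the pair moved in opposite directions. Capitals mark the 7-base core of the metal response element that MTF1 binds, searched as TGCACNC and TGCGCNC on both strands. The Slc30a4 window, chr2:122702614-122702913 on the minus strand, holds 3 such matches, and the Slc30a5 window, chr13:100833378-100833677 on the minus strand, holds 1.
Slc30a4: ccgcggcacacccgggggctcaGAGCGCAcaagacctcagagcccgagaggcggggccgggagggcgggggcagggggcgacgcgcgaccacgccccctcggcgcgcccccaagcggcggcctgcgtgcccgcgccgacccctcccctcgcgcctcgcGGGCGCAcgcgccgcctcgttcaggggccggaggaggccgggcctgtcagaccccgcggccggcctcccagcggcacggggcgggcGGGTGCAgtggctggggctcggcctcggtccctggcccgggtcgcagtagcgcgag
Slc30a5: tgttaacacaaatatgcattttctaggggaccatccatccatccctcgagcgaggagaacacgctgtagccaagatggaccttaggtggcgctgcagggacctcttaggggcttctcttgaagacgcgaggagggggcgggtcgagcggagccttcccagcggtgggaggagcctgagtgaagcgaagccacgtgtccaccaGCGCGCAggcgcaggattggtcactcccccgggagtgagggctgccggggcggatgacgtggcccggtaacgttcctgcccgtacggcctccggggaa
At least 1 match is found in 25.7% of all 32851 promoter windows of this length and 2 or more in 7.11%. Neither window holds the STAT motif TTCNNNGAA, which is in 8.30% of windows. A match is a description of these letters and not a bound site. A window was found for 7 of the 8 genes, all but Slc39a14; the Slc39a10 windows hold no match to the metal response core, and 1 of the 2 Slc39a8 windows holds 1. The only STAT motif among the windows of the 8 genes was 1 in a Slc39a10 window.

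The plasma membrane exporter gene Slc30a1 (ZnT1), a known MTF1 target whose promoter window holds 2 such matches, did not pass. Stimulated KO libraries ranged from 15.9 to 32.3 CPM and control KO libraries from 15.3 to 32.3 CPM, and stimulated het libraries ranged from 14.2 to 25.1 CPM against 19.0 to 30.8 CPM in control het libraries. The groups overlapped in both genotypes (averaged log2 fold change -0.10 ± 0.14, adjusted p = 0.774, and -0.16 ± 0.16 in the 16 libraries, adjusted p = 0.55). Within the 6 animals whose libraries followed their labels, the stimulated CPM was the lower one, by 0.003 to 0.66 on the log2 scale. CPM rest on library totals alone, and edgeR's TMM scaling factor was lower in the stimulated library of each of these animals. In animal 10, at 0.003, the factors were 0.960 (stimulated) and 1.063 (control), and applying them would reverse the direction.

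Mt2 and Mt1 are neighbours on chromosome 8 with no gene between them, in a row that also holds Mt4 and Mt3. Both give small transcripts and are close copies, so single values are uncertain to the extent that reads were split between them. Their promoter windows (RefSeq, GRCm38.p6, both on the plus strand) are shown because the pair lies side by side and varied together, with the same motif in capitals. Mt2, chr8:94172368-94172667, has 4 matches, a number reached by 0.517% of windows, and Mt1, chr8:94178839-94179138, has 3.
Mt2: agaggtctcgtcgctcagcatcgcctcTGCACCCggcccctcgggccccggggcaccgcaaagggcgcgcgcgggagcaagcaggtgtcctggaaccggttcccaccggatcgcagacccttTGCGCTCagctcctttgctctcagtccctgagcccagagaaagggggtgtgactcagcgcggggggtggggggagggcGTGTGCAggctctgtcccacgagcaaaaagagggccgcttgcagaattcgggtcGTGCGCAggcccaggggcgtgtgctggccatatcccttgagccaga
Mt1: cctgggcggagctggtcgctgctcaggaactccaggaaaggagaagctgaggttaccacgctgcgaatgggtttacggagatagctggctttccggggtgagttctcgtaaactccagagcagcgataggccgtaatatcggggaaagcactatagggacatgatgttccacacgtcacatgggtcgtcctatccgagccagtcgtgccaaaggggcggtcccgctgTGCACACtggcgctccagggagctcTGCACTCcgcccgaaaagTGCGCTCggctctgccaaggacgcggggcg
Neither holds the STAT motif in these letters.

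Mt2 had the largest averaged fold change of the 8 genes, without passing the test in 20 libraries. Stimulated KO libraries had 76.2, 59.2, 43.1, 27.1 and 53.5 CPM, against 38.4, 23.5, 17.8, 39.1 and 11.6 CPM in control KO libraries. Stimulated het libraries had 172, 51.3, 57.7, 112 and 19.2 CPM, against 173, 15.7, 26.1, 115 and 30.2 CPM in control het libraries. In KO cells 4 stimulated libraries were above all controls and the fifth, of animal 8, was among them, while in het cells the groups overlapped. With 20 libraries the averaged log2 fold change was 0.70 ± 0.43 (adjusted p = 0.404), with 1.04 ± 0.61 in KO cells (adjusted p = 0.695) and 0.36 ± 0.61 in het cells (adjusted p = 0.845). In the 16 libraries the KO groups no longer overlapped, and the averaged value was 0.92 ± 0.43 (adjusted p = 0.186).

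Whether Mt2 was called in the 16 libraries depended on whether the fit took the animal as a block. With the animal as a block it rose 1.15 ± 0.20 averaged over genotypes (adjusted p = 0.00373, 33.4% of genes called) and 1.68 ± 0.32 in KO cells (adjusted p = 0.0105, 13.5% of genes called), and it was at 0.61 ± 0.31 in het cells (adjusted p = 0.201, 18.6% of genes called). Within animals the stimulated value was higher by 2.16 on the log2 scale in animal 10, 1.71 in animal 6, 1.68 in animal 2 and 0.98 in animal 3. It differed by -0.01 in animal 1 and -0.04 in animal 9, where Mt2 was already above 100 CPM without the stimulus. These differences rest on CPM from library totals. The TMM factors were 0.944 (stimulated) and 1.098 (control) in animal 1, and 1.037 and 1.127 in animal 9. Applying them would reverse the direction in both animals. In animals 4 and 8 the library labelled stimulated was at -0.64 and -0.52 relative to the one labelled control. Animals 1 and 9 were picked for their high Mt1 and Mt2, so fits without them are conditioned on Mt2 itself and are given as values only. In the 12 libraries without animals 1, 4, 8 and 9 the Mt2 log2 fold change was 1.41 ± 0.33 in KO cells and 1.49 ± 0.47 in het cells, with 13.2% and 4.20% of all genes called.

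Mt1 did not pass the test in either set of libraries. Stimulated KO libraries had 72.9, 64.7, 57.1, 52.8 and 51.9 CPM, against 66.3, 47.9, 37.9, 46.3 and 30.4 CPM in control KO libraries. Stimulated het libraries had 119, 57.3, 58.9, 118 and 46.6 CPM, against 204, 35.8, 54.8, 189 and 57.1 CPM in control het libraries. All groups overlapped, and the averaged log2 fold change was 0.07 ± 0.28 (adjusted p = 0.92) in 20 libraries and 0.10 ± 0.31 (adjusted p = 0.872) in 16. Mt1 was at 0.43 ± 0.40 in KO cells and at -0.28 ± 0.40 in het cells (adjusted p = 0.859 and 0.81).

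**Figure D3:**
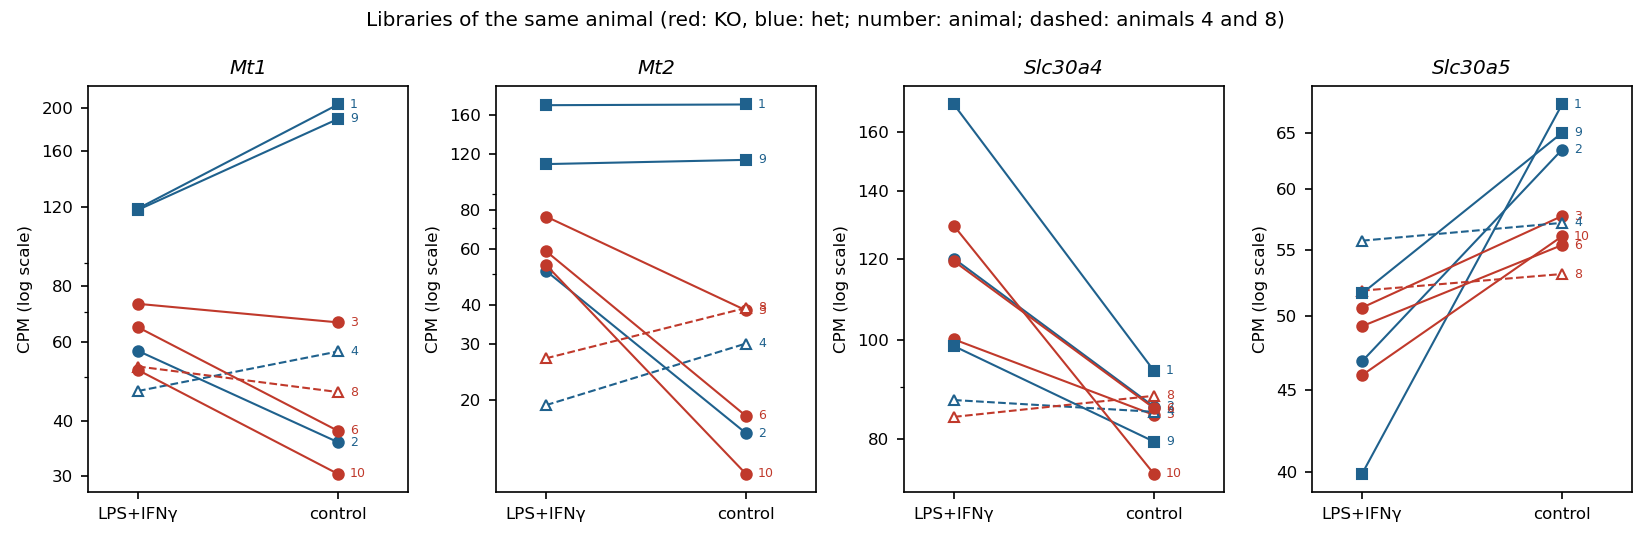
CPM on a log axis in the stimulated and the control library of the same animal and genotype (8 animals, red KO, blue het, dashed for animals 4 and 8) for Mt1, Mt2, Slc30a4 and Slc30a5. Mt2 is higher on the stimulated side in 4 animals, nearly level in animals 1 and 9, and lower on the side labelled stimulated in animals 4 and 8. Slc30a5 is lower on the stimulated side in the 6 animals drawn solid.

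The balance between Mt2 and Mt1 was described as a share of their summed counts. In the 16 libraries Mt2 made up 43.0 to 59.1% of the Mt1 plus Mt2 counts with the stimulus (49.6% ± 4.58, SD, n = 8) and 27.7 to 45.9% without (34.5% ± 5.66, SD, n = 8). Of the 8 stimulated libraries, 7 lay above every control, since the only control over 40% was het replicate 1, of animal 1. Within the 6 animals the stimulated share was higher by 10.7 to 23.1 percentage points, animals 1 and 9 included with 13.2 and 10.7 points. In the libraries against their labels the share was 33.9% and 29.2% where labelled stimulated and 45.8% and 34.6% where labelled control. Over 20 libraries it was 46.0% ± 8.70 against 35.6% ± 6.14 (SD, n = 10 each). The 95% Wilson interval of a single share reached at most 3.76 points to either side, which covers counting error only. This ratio was singled out after its values were seen and is given without a test.

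**Figure D4:**
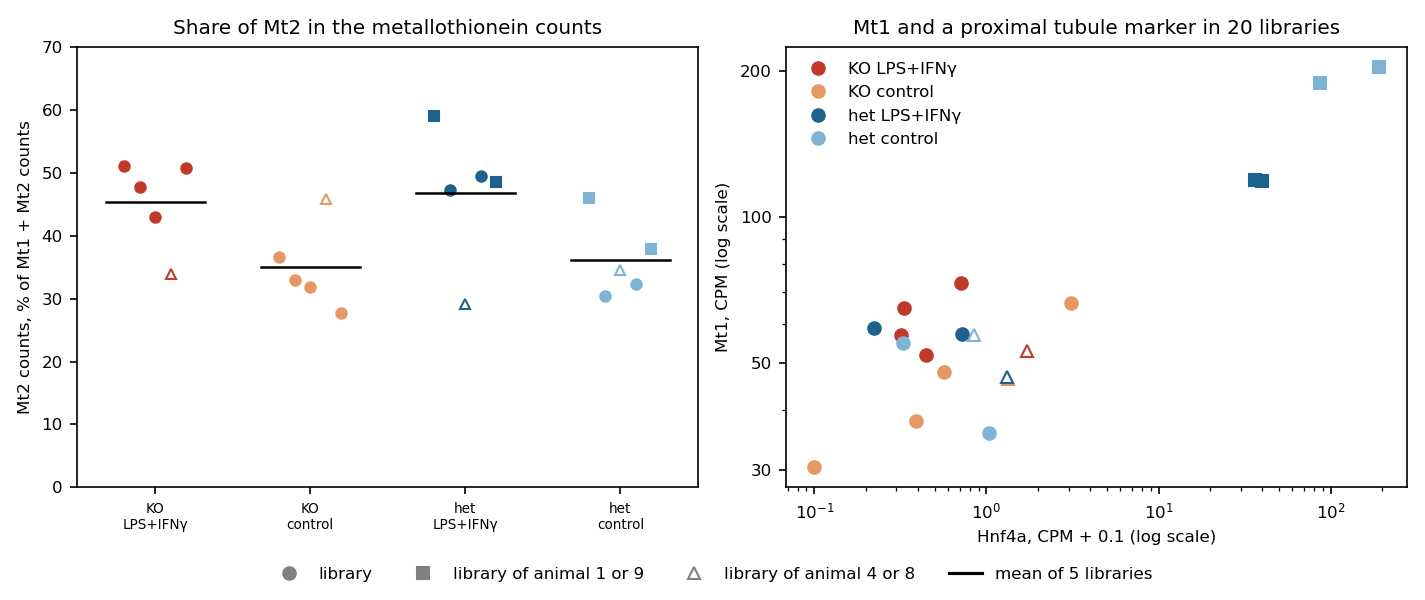
Left, Mt2 counts as a percent of Mt1 plus Mt2 counts by group, with the mean of 5 libraries. Right, Mt1 CPM against Hnf4a CPM + 0.1 on log axes; the libraries of animals 1 and 9 (squares) form a group of their own at high Mt1 and high Hnf4a.

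None of the importers passed the stimulus test over 20 libraries. Slc39a14 (ZIP14), which carries zinc, iron and manganese, ranged from 33.5 to 49.3 CPM in stimulated KO libraries, against 41.1 to 51.2 CPM in control KO libraries, and from 36.6 to 72.4 CPM in stimulated het libraries, against 41.8 to 61.1 CPM in control het libraries. In KO cells 4 of 5 stimulated libraries were below all controls, and in het cells the groups overlapped. Without animal 8 the KO groups did not overlap in CPM, at 33.5 to 39.9 CPM with the stimulus and 41.1 to 51.2 CPM without (-0.30 ± 0.17, adjusted p = 0.467). The TMM factors were 0.954 for the stimulated library at 39.9 CPM and 1.026 for the control library at 41.1 CPM. Applying them would put the first above the second, so this gap and the count of 4 libraries below all controls depend on the scaling. Its averaged log2 fold change was -0.07 ± 0.11 (adjusted p = 0.768), and -0.12 ± 0.12 in the 16 libraries (adjusted p = 0.569). Slc39a8 (ZIP8), a zinc, manganese and cadmium transporter known as an NF-kB target in human cells, was at 5.15 to 9.25 CPM with the stimulus and 4.28 to 8.76 CPM without (0.17 ± 0.13, adjusted p = 0.513, and 0.32 ± 0.13 in the 16 libraries, adjusted p = 0.14). Slc39a10 (ZIP10), which lies in the plasma membrane, was at 37.3 to 62.9 CPM with the stimulus and 42.4 to 69.1 CPM without (-0.04 ± 0.11, adjusted p = 0.888, and -0.10 ± 0.13 in the 16 libraries, adjusted p = 0.651). The 95% interval of the averaged log2 fold change in 20 libraries was -0.31 to 0.16 for Slc39a14, -0.10 to 0.44 for Slc39a8 and -0.27 to 0.19 for Slc39a10. Without animals 1, 4, 8 and 9 Slc39a14 was called lower with the stimulus (-0.25 ± 0.07, adjusted p = 0.0487, where 15.5% of genes were called), in libraries chosen after the values were seen.

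The question of whether loss of Ptprz1 changed these genes was asked in each state. The values below are from the 20 libraries as labelled, where each group holds 1 library of animal 4 or 8. In the 16 libraries without these animals, edgeR called 0 of 8 genes and 0% of all genes in either state. There 774 genes without the stimulus and 787 after it had an unadjusted p under 0.05. Without the stimulus 0 of 8 genes and 0% of all genes were called (499 genes at an unadjusted p under 0.05, and 2 genes, 0.0137%, by DESeq2, neither a member). The mean of Mt1 was 45.8 ± 13.4 CPM for unstimulated KO cells and 108 ± 81.1 CPM for unstimulated het cells. For Mt2 the means were 26.1 ± 12.3 CPM for KO and 72.0 ± 69.1 CPM for het (SD over 5 libraries). Their log2 fold changes were -1.13 ± 0.40 and -1.34 ± 0.62 (edgeR's quasi-likelihood test, Benjamini-Hochberg adjusted p = 0.999 for both). Slc39a8 was at -0.38 ± 0.18 and Slc30a5 at -0.15 ± 0.07 (adjusted p = 0.999 for both). After the stimulus 0 of 8 and 0% of all genes were called as well (366 genes at an unadjusted p under 0.05, 0 by DESeq2). There Mt1 was at -0.41 ± 0.40, Mt2 at -0.67 ± 0.61, Slc39a14 at -0.29 ± 0.16 and Slc30a1 at 0.25 ± 0.21 (adjusted p = 1 for each).

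The highest metallothionein values in het cells were those of 2 animals. All 4 libraries of animals 1 and 9, which gave het cells only, had 118 to 204 CPM of Mt1 and 112 to 173 CPM of Mt2. The other 16 libraries had 30.4 to 72.9 CPM of Mt1 and 11.6 to 76.2 CPM of Mt2. No other member separated these libraries, although Slc39a14 was at 49.2 to 72.4 CPM in them and at 33.5 to 51.2 CPM in the rest. Without both animals Mt1 was at -0.08 ± 0.22 and Mt2 at 0.15 ± 0.46 in control cells, KO against het, and at 0.13 ± 0.23 and 0.25 ± 0.46 after the stimulus. Both animals are het and were picked for high Mt1 and Mt2, so leaving them out lowers the het side of these same genes. The values are therefore given without a test and do not show whether genotype matters.

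The same 4 libraries differed from the rest in markers of cell type. Hnf4a, a regulator of proximal tubule identity, was at 36.3 to 190.4 CPM in them and at 0 to 2.99 CPM in the others, and the 7 proximal tubule markers summed to 160.1 to 511 CPM against 21.5 to 131 CPM. Leukocyte markers summed to 62.2 to 336 CPM against 4.06 to 21.1 CPM, and the fibroblast list to 99.0 to 1716 CPM against 2680 to 19480 CPM. Fkbp5, a glucocorticoid target, was at 30.4 to 92.5 CPM against 7.38 to 28.8 CPM. It is a single gene of the glucocorticoid list, and the others on that list were not compared between these libraries. The animals were picked out after these values were seen, and the part of these markers in the metallothionein levels was not tested. Genotype and these 2 animals cannot be told apart for Mt1 and Mt2, since no KO library came from them.

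Whether KO and het cells answered the stimulus differently was tested as the difference of the responses, KO minus het. In the 16 libraries without animals 4 and 8, edgeR called 0 of 8 genes and 0% of all genes (224 at an unadjusted p under 0.05). The values that follow are from the 20 libraries as labelled, where each group holds 1 library of animal 4 or 8. Of the 8 genes 0 passed, as did 0% of all genes (138 genes at an unadjusted p under 0.05, 1 by DESeq2, 0.00686%, not a member). The difference was 0.72 ± 0.56 for Mt1, 0.68 ± 0.86 for Mt2 and 0.22 ± 0.10 for Slc30a5 (adjusted p = 1 for each). For Slc30a5 the 95% interval was 0.002 to 0.44 and the unadjusted p was 0.0478, and its level averaged 50.7 ± 3.64 CPM in stimulated and 55.6 ± 1.66 CPM in control KO libraries, and 48.3 ± 5.91 CPM in stimulated and 64.3 ± 4.45 CPM in control het libraries (SD, n = 5 each).

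Among the other zinc genes edgeR called 0 for the stimulus in 20 libraries and DESeq2 called 1, Mt3. None of 7 further importers tested (of 11) passed, with Slc39a13, a zinc transporter of the secretory pathway, at -0.24 ± 0.14 (adjusted p = 0.39). None of 3 further exporters (of 7) passed, with Slc30a9 at -0.09 ± 0.06 (adjusted p = 0.495). Medians of the averaged log2 fold change were 0.01 and -0.07 for these lists. In the 16 libraries none of either list passed, with Slc39a13 at -0.39 ± 0.15 (adjusted p = 0.097) and Slc30a9 at -0.15 ± 0.07 (adjusted p = 0.211). Slc39a1, Slc39a7 and Slc39a6 were the most abundant importers by CPM, at 174 to 265, 109.7 to 215 and 90.3 to 175 CPM.

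Of the third list, Mtf1 was at 0.16 ± 0.07 (adjusted p = 0.194, and 0.158 in the 16 libraries), Mt4 had at most 0.0574 CPM and was not tested, and Mt3 was at 2.59 ± 0.96 (adjusted p = 0.136). Mt3, a metallothionein best known from the brain, was low. It had 1.84, 1.09, 0.545, 0.0649 and 0.458 CPM in stimulated KO libraries, against 0.0597, 0.261, 0, 0.678 and 0 CPM in control KO libraries. Stimulated het libraries had 28.2, 0.364, 1.1, 2.31 and 0.159 CPM, against 2.65, 0.186, 0.113, 0.922 and 0.0573 CPM in control het libraries. In the 16 libraries it passed (3.33 ± 0.98, adjusted p = 0.0337), and in all 6 animals there the stimulated value was the higher one. Without the single library at 28.2 CPM the 20-library value was 1.19 ± 0.78 (adjusted p = 0.474), and without animals 1, 4, 8 and 9 it was 2.89 ± 0.76 (adjusted p = 0.0255).

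Of 9 copper-handling genes 1 passed in 20 libraries, where 5.02% of all genes did, and 2 passed in the 16 libraries, where 15.0% of all genes did. Slc31a2, which encodes the copper transporter CTR2, rose 0.79 ± 0.21 (adjusted p = 0.0362), and 1.02 ± 0.20 in the 16 libraries (adjusted p = 0.00242), where the copper chaperone gene Atox1 fell by 0.36 ± 0.10 (adjusted p = 0.0251). Stimulated KO libraries had 55.6, 85.2, 51.8, 34.1 and 87.2 CPM of Slc31a2, against 38.0, 34.5, 36.6, 38.7 and 33.1 CPM in control KO libraries, and stimulated het libraries had 28.0, 71.7, 59.3, 67.2 and 30.3 CPM, against 23.0, 31.5, 23.6, 45.2 and 43.8 CPM in control het libraries. Its call was lost when any 1 of 13 libraries was left out (adjusted p = 0.0545 to 0.0887) and with the animal as a block (adjusted p = 0.104). None of 8 glucocorticoid targets passed, and their median was -0.01, with Dusp1 at -0.33 ± 0.20 and Per1 at 0.25 ± 0.16 (adjusted p = 0.384 and 0.436); in the 16 libraries none passed either, with Dusp1 at -0.47 ± 0.22 (adjusted p = 0.172).

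The pattern of Mt1 over the 20 libraries was most like that of Mt2 (Spearman's rho 0.904), followed by Sptlc2 (0.889), Hspa8 (0.884), Tyk2 (0.883) and Mcat (0.883), among 9359 genes with a mean of at least 10 CPM. Mt2 was most like Ugdh (0.974), Sptlc2 (0.967), Blnk (0.962), Gclm (0.958) and Mrpl45 (0.955). Slc39a14 was most like Kazn (0.872), Dpy30 (0.844), Odc1 (0.842), Tmem63b (0.836) and Arhgap18 (0.836). Within the set Slc30a4 and Slc30a5 ran opposite to each other (-0.71), and Mt2 and Slc30a4 together (0.561). These are descriptions over libraries that share animals and the stimulus, so they follow the groups as well as the spread within them.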

How the data were processed

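The deposited table holds estimated counts per gene, whole numbers as the authors deposited them; per the submitters' processing notes the tools were Salmon 1.10.2, FastQC 0.11.9, DESeq2 1.45.3 and R 4.4.1 with the build GRCm39, listed without roles. The strand setting and the summing to genes are not given in the labels read here. Of 55891 Ensembl IDs, 92.0% were paired with a symbol, holding 98.8% of the counts. CPM were computed from column totals. edgeR 4.0.16 (R 4.3.3) with TMM scaling, its own filter on low counts and robust quasi-likelihood dispersion was fitted to all 20 libraries with 4 group means and tested on simulated counts. All 6 contrasts were adjusted by Benjamini-Hochberg over 14568 genes. Within-animal differences used log2(CPM + 0.5), with CPM from library totals and no TMM factor. Means, correlations and figures used Python 3.11.15, numpy 2.4.6, pandas 2.3.3 and matplotlib 3.10.9. The labels tie libraries to animals but do not say how cultures were split, so p-values measure spread between libraries. After removing group means, libraries of 1 animal had correlations of -0.298 to 0.623, with 8 of 10 over 0.1. The negative ones were those of animals 4 (-0.207) and 8 (-0.298). Correlations between libraries of different animals were not set beside them, so these values do not show how far the animal pairs libraries. Alternatives were DESeq2 1.42.0, other scaling and filters, the animal as a block, other pseudocounts and left-out libraries. The 8 members were taken by name, and for the most alike genes the 5 highest Spearman values were taken for Mt1, Mt2 and Slc39a14. Members and lists were chosen with earlier results of these data known.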

Additional observations from a re-analysis of the deposited data

How the results depend on the processing

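The main limits are the 4 libraries against their stimulus labels, the 2 het animals with high metallothioneins, and animals 5 and 7 under both genotypes. Counts are given beside the share of all genes called by the same fit. Of the 2 genes called over both genotypes (5.02%), 1 was left with no filter on low counts (Slc30a5 lost, 1.72%) and 1 without animals 4, 5, 7 and 8 (8.93%), 0 in the fit blocked by animal (0%), and 0 without animals 1 and 9 (0%, an alternative chosen after seeing the data); without animals 1, 4, 8 and 9, chosen likewise and by values that include Mt2, 4 were called (15.5%). In het cells, with 0 called (0%), DESeq2 called 1 (3.32%), the 16 libraries gave 2 (7.15%), and the block there 2 (18.6%); in KO cells, with 0 called (0%), the block in the 16 libraries gave 2 (13.5%), as did leaving out animals 1, 4, 8 and 9 (13.2%). The other zinc genes, with 0 called, gave 1 over both genotypes with DESeq2 (8.49%), 1 in the 16 libraries (15.0%), 2 with the block there (33.4%) and 1 without animals 1, 4, 8 and 9 (15.5%); in KO cells 1 with the block in the 16 libraries (13.5%) and 2 without animals 1, 4, 8 and 9 (13.2%); and in het cells 1 with that block (18.6%). Leaving out 1 library at a time gave 1 to 2 members over both genotypes, 0 to 2 in het cells and 0 to 1 other zinc genes in het cells.

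Log2 fold changes that turned were small or lay in the metallothioneins, and the cause was not tested. With library totals alone, which moved the median of all genes to -0.12 in het cells, Slc39a14 was at -0.063 in het cells and Mt1 at -0.023 over both genotypes. With the animal as a block in 20 libraries, Slc39a10 was at 0.059 in het cells, and KO against het after the stimulus Mt1 was at 0.25 and Mt2 at 0.16. A fit with this block links KO to het only through animals 5 and 7, which the labels list under both genotypes. Its KO against het values, in 20 and in 16 libraries, therefore rest on those labels. With the block in the 16 libraries, Slc30a1 was at -0.045 in KO cells, Slc39a10 at 0.029 in het cells, and KO against het after the stimulus Mt1 at 0.30 and Mt2 at 0.27. Without animals 4, 5, 7 and 8, Slc30a1 was at -0.019 in KO cells and Slc39a10 at 0.11 in het cells. Without animals 1 and 9, which were picked for their high Mt1 and Mt2, Mt1 was at 0.22 and Slc39a14 at -0.12 in het cells. In the same fit, KO against het, Mt2 was at 0.15 in control cells, and Mt1 at 0.13 and Mt2 at 0.25 after the stimulus. Without animals 1, 4, 8 and 9, Mt1 was at 0.47 and Slc39a14 at -0.20 in het cells; KO against het, Mt1 was at 0.016 and Mt2 at 0.14 in control cells and at 0.044 and 0.049 after the stimulus, and the Mt2 difference of responses was -0.088. Leaving out 1 library at a time gave -0.11 to 0.021 for Slc39a10 and -0.13 to 0.22 for Slc30a1 in KO cells; -0.51 to 0.066 for Mt1, -0.14 to 0.97 for Mt2, -0.18 to 0.12 for Slc39a14 and -0.13 to 0.080 for Slc39a10 in het cells; and -0.041 to 0.25 for Mt1 and -0.092 to 0.015 for Slc39a10 over both genotypes. No other printed fold change of the 8 genes reversed under the alternatives run, and other pseudocounts moved no within-animal median by more than the spread between animals.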
